A study of Homo sapiens with 6 samples.

Results

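Tubulin genes were described in K562 cells by setting nascent transcription against steady-state RNA. The genes were 4 alpha-tubulin genes (TUBA1A, TUBA1B, TUBA1C and TUBA4A), 4 beta-tubulin genes (TUBB, TUBB2A, TUBB4B and TUBB6), the gamma-tubulin gene TUBG1, and TTC5, whose protein triggers the decay of tubulin mRNAs. They were chosen by gene symbol, and all 10 were found among the 37192 genes with a counted transcript. The data were 4 libraries of total RNA-seq and 2 of PRO-seq, all from untreated K562 cells of the same flask, so the spread between libraries may be technical and p-values measure that spread alone. K562 is a human chronic myelogenous leukemia line, and PRO-seq locates transcribing polymerases through the nascent RNA that they hold.

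Alpha- and beta-tubulin form the dimer from which microtubules are built, and gamma-tubulin seeds new microtubules at the centrosome. Cells adjust tubulin synthesis by autoregulation: when free dimers are abundant, TTC5 binds the first residues of alpha- and beta-tubulin as they leave the ribosome, and the CCR4-NOT deadenylase, recruited through SCAPER, then degrades the mRNA being translated. The regulation acts on cytoplasmic mRNA and not on transcription, so nascent and steady-state RNA are read separately here. Several of the isotypes are encoded by nearly identical genes, and the genome also holds many processed tubulin pseudogenes.

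The start of each coding sequence is shown because it encodes the residues that TTC5 reads. The canonical coding transcripts on GRCh37 gave the following 24 bases, 5′ to 3′, with the first 4 codons in capitals.
TUBA1A: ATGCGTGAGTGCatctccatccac
TUBA1B: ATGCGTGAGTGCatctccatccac
TUBA1C: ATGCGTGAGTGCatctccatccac
TUBA4A: ATGCGTGAATGCatctcagtccac
TUBB: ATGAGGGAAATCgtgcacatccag
TUBB2A: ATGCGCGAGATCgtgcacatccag
TUBB4B: ATGAGGGAAATCgtgcacttgcag
TUBB6: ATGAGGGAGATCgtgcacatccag
TUBG1: ATGCCGAGGGAAatcatcacccta
TTC5: ATGATGGCTGATgaagaggaagaa
TUBA1A, TUBA1B and TUBA1C had the same 24 bases. The start of TUBA1B lay on the minus strand at chr12:49523485-49525083, a range that holds an intron, since only 3 coding bases of each alpha gene are in the exon with the start codon. The start of TUBB lay within 1 exon, on the plus strand at chr6:30688284-30688307. The first 4 codons of all 4 alpha genes encoded the same residues, as did those of all 4 beta genes, although the bases differed between isotypes. Of 19532 human coding sequences, 9 (0.0461%) encoded the alpha residues and 10 (0.0512%) encoded the beta residues, and every one of these was a tubulin gene. TUBG1 and TTC5 began with other codons.

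The deposited counts are those of the longest transcript of each gene, and for 4 of the 10 genes that transcript was not the main coding one. TUBA1A, TUBA1B, TUBB, TUBB2A, TUBB4B and TUBG1 were counted on their canonical transcript, with all of the coding sequence inside the counted exons. TUBA1C was counted on a noncoding transcript (chr12:49602329-49650272) that shares no base with the canonical one and ends upstream of it. The counted exons of TUBB6, a beta isotype known from many non-neuronal tissues, were 359 bp in length and held 6.50% of its coding sequence. Those of TUBA4A, an alpha isotype, were 615 bp in length and held 41.1%. Those of TTC5 held none of the coding sequence, and 3.36% of its PRO-seq window lay within the canonical gene. Values of these 4 genes are therefore those of the counted transcript and not of the whole mRNA. In TUBA4A and TTC5, 89.8% and 63.2% of the counted exon bases lay in canonical exons, so RNA-seq counts may include the canonical mRNA. Of their PRO-seq windows, 10.1% and 3.36% lay within the canonical gene. The assays thus covered different parts of these genes, and their ratio need not be the half-life of any single RNA. Of 18798 coding genes, 61.1% were counted on the canonical transcript and 1.62% had under 10% of the coding sequence in the counted exons, a group that TUBA1C, TUBB6 and TTC5 belong to.

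Near-identical sequence also limits what could be counted. Reads that align to several places are left out of HTSeq counts by default, and such alignments made up 24.5% to 28.0% of RNA-seq records and 2.73% to 2.79% of PRO-seq records. A further 21.6% and 20.6% of PRO-seq records were left out for low alignment quality, and 0% in every RNA-seq library. How much of that came from near-identical sequence was not tested. The coding sequences of TUBA1B and TUBA1C were 97.3% identical, those of TUBA1A and TUBA1B 97.2%, and those of the 4 beta genes between 81.3% and 87.3%. Windows of 75 bases, the RNA-seq read length, were looked up in GRCh37. The same windows were used for PRO-seq, which was sequenced with longer reads. In TUBB2A, 40.5% of the windows of the exons occurred at no other locus, the lowest share of the 10 genes. The share was 51.6% in TUBA1B, 68.3% in TUBA1A, 79.6% in TUBG1, 89.5% in TUBB and 94.4% in TUBB4B. In the PRO-seq windows, where introns are included, the share in these 6 genes ran from 62.7% in TUBB2A to 98.9% in TUBB4B. The exons of TUBA1C, TUBA4A, TUBB6 and TTC5 gave 100%.

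Counts on transcription units (TUs) ranged from 5732780 to 9002746 in RNA-seq and were 6993816 and 7245632 in PRO-seq. Of the counts on TUs kept after joining to the annotation, the 10 genes took 0.356% in RNA-seq and 0.0346% in PRO-seq. The line was checked against its markers. Summed over libraries, the erythroid genes HBG1, HBG2, TAL1 and GATA1 lay between 79.7 and 6287 TPM (transcript abundance scaled to depth and length) in RNA-seq, whereas the T cell gene CD3E, the liver gene ALB and the keratin gene KRT5 lay at 0.483 TPM or below. Every pair of libraries of an assay differed by more than sampling noise, but RNA-seq replicates 1 and 3 and replicates 2 and 4 were closer (chi-square per degree of freedom 1.11 and 1.12) than the other RNA-seq pairs (1.74 to 2.11).

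TUBA1B was the highest of the 10 genes in both assays, followed by TUBB and TUBB4B. Levels are given as TPM, the abundance unit that divides counts by library size and by length (exon length for RNA-seq, TU span less 1000 bp for PRO-seq). TUBA1B, the main alpha gene of dividing cells, had 1802, 1817, 1840 and 1819 TPM in RNA-seq replicates 1 to 4. In PRO-seq it had 905 and 984 TPM, so that the lowest RNA-seq library was above both PRO-seq libraries. TUBB, the corresponding beta gene, had 1323, 1208, 1323 and 1218 TPM in RNA-seq against 672 and 720.3 TPM in PRO-seq. TUBB4B, the other widely used beta gene, had 689.7, 689.6, 707 and 686 TPM in RNA-seq against 599 and 611 TPM in PRO-seq. The RNA-seq TPM of these 3 genes was above that of 99.6%, 99.5% and 99.0% of protein-coding TUs, and their PRO-seq TPM above that of 99.7%, 99.6% and 99.5%. In each of the 6 libraries the order of the 3 was the same.

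TUBA1A and TUBB2A, isotypes known from the nervous system, stood lower and had the opposite order of assays. TUBA1A had 28.9, 29.4, 30.5 and 31.5 TPM in RNA-seq and 64.7 and 69.3 TPM in PRO-seq. TUBB2A had 47.7, 39.5, 47.9 and 47.1 TPM in RNA-seq and 92.7 and 96.2 TPM in PRO-seq. For both genes every PRO-seq library was above every RNA-seq library. TPM is relative to the other TUs of the same assay, so this order by itself is no measure of stability.

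TUBG1 had 58.9, 54.5, 52.4 and 54.4 TPM in RNA-seq and 35.7 and 34.97 TPM in PRO-seq. TUBB6, on its counted transcript, had 133, 95.7, 91.7 and 107 TPM in RNA-seq and 48.1 and 46.8 TPM in PRO-seq, from 528 and 801 summed counts. The counted transcript of TUBA4A had 45.2, 38.0, 47.9 and 40.7 TPM in RNA-seq and 6.96 and 6.10 TPM in PRO-seq. All 3 were higher in RNA-seq without overlap. TTC5, likewise on its counted transcript, was low, at 2.06, 5.57, 3.50 and 4.19 TPM in RNA-seq, from 7, 20, 8 and 11 counts, and at 19.3 and 21.1 TPM in PRO-seq. That of TUBA1C had 0 counts in every RNA-seq library and 9 and 14 counts in PRO-seq. A total of 0 over the RNA-seq libraries allows up to 3 counts, or 0.385 TPM, a limit for counting error only, since the reads carry no molecular identifiers.

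In RNA-seq the mean levels were ordered TUBA1B, TUBB, TUBB4B, TUBB6, TUBG1, TUBB2A, TUBA4A, TUBA1A, TTC5 and TUBA1C. Among neighbours in that order, TUBB2A (45.5 ± 4.04 TPM, SD, n = 4) and TUBA4A (43.0 ± 4.44 TPM, SD, n = 4) overlapped and the others did not. In PRO-seq the order was TUBA1B, TUBB, TUBB4B, TUBB2A, TUBA1A, TUBB6, TUBG1, TTC5, TUBA4A and TUBA1C, with no overlap between the pairs of libraries of neighbours. TUBB2A and TUBA1A thus ranked above TUBB6 and TUBG1 in nascent RNA and below them in steady-state RNA, although with exon length at windows found once TUBB2A passed TUBB6 in steady-state RNA (4.74% against 4.50% of beta TPM).

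**Figure D1:**
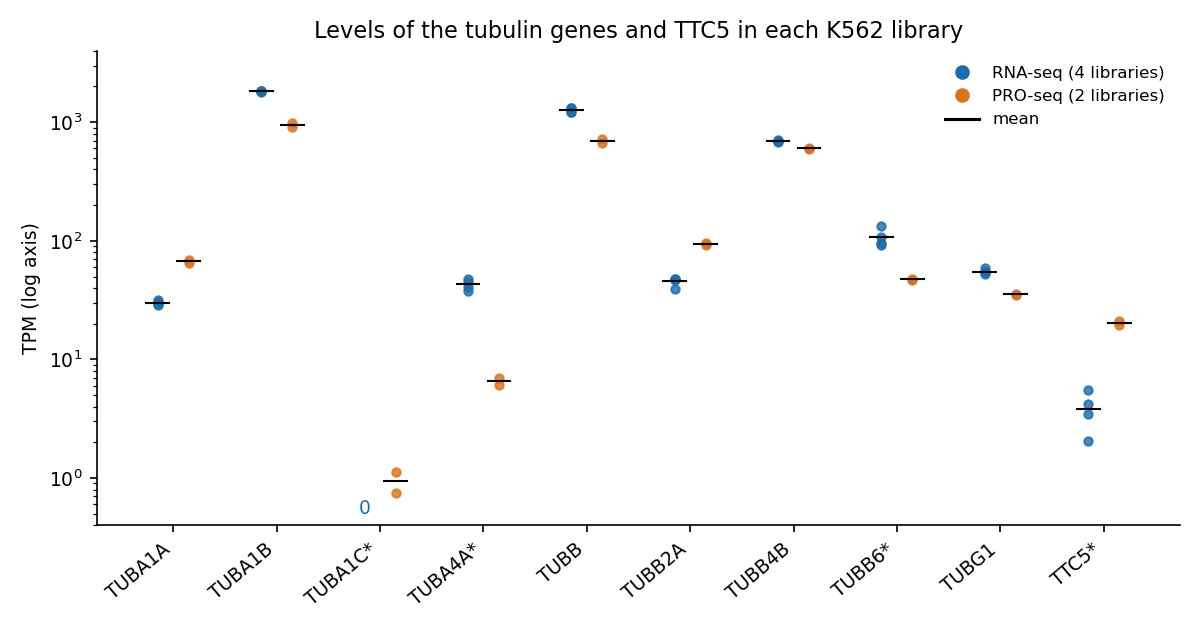
TPM (log axis) of each gene in the 4 RNA-seq (blue) and 2 PRO-seq (orange) libraries, with a black line at the mean and an asterisk on genes not counted on their canonical transcript. TUBA1B, TUBB and TUBB4B sit highest in both assays, TUBA1A, TUBB2A and TTC5 are higher in PRO-seq, and TUBA1C is at 0 in RNA-seq.

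Relative half-life, the measure of the study, is the RNA-seq TPM of a TU over its PRO-seq TPM. It assumes a steady state and a PRO-seq signal proportional to synthesis, so that elongation rate and RNA processing are part of it, and it has no unit. Here it is given as log2 relative to the median mRNA, which is 0. Over 8733 tested mRNAs it had an SD of 1.68, while the replicate SD of a typical mRNA was 0.126. TUs with a PRO-seq level above 10 TPM and an RNA-seq level above 1 TPM were each tested against the median mRNA by quasi-likelihood in edgeR, adjusted over 10053 TUs by Benjamini-Hochberg. Of the 10 genes, 8 passed these thresholds, TUBA4A fell below the first at 6.53 TPM and TUBA1C below both.

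TUBA1B, TUBB, TUBB4B, TUBB6 and TUBG1 lay above the median mRNA, whereas TUBA1A, TUBB2A and TTC5 lay below it, the first 2 of these not under every setting tried. These are 5 calls above and 3 below among 8, where 40% of all TUs tested were called above and 50.4% below, so being called was common at this depth. Among the tested mRNAs alone, these shares were 45.4% and 44.9%. DESeq2 made the same 8 calls, with 38.7% of all TUs above and 48.8% below. The median log2 relative half-life of the 8 genes, all protein-coding, was 1.06, beside 0.00064 over the mRNAs tested and −0.24 over all TUs tested. Among the genes counted on their canonical transcript, 4 were called above and 2 below. When a difference of more than 2-fold was required, 4 genes remained above (TUBA1B, TUBB, TUBB6 and TUBG1, with 21.3% of all TUs) and TTC5 below (29.8% of all TUs).

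Among the alpha genes, TUBA1B had a log2 relative half-life of 1.58 (SE 0.0415, edgeR adjusted p = 6.35e-25), 2.99-fold above the median mRNA and above 83.9% of tested mRNAs. This was larger than its replicate SD of 0.0858. TUBA1A, whose coding sequence is nearly the same, stood at −0.52 (SE 0.149, edgeR adjusted p = 0.00185), 1.44-fold below the median mRNA. TUBA1B rested on 40222 RNA-seq and 1290 PRO-seq counts, and TUBA1A on 681 and 115. The value of TUBA1A depended on the processing: with the exon length cut to windows found once, it was 0.02, and with the PRO-seq length cut in the same way as well, −0.18. The same steps gave 2.54 and 2.19 for TUBA1B, so TUBA1B remained above TUBA1A in each.

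The counted transcript of TUBA4A had the highest value of the 9 genes that have one, 3.34 with a replicate SD of 0.201 and no test, since its PRO-seq level was under the threshold. It was 10.1-fold above the median mRNA and above 97.6% of tested mRNAs. Without TPM thresholds, at 1 summed count or more, it was called above at 3.996 (edgeR adjusted p = 3.36e-123), as were 31.6% of 21100 TUs (37.3% were called below), but that setting moved all TUs up by a median of 0.66. Of its PRO-seq window, 10.1% lay within the canonical gene and 68.8% overlapped TUBA4B on the opposite strand, and the sources used here do not say whether counting used strand. For TUBA1C, 3 counts would give −0.65, so the counted transcript was at least 1.57-fold below the median mRNA when its PRO-seq level, from 23 counts, is taken as it stands. A gene on the opposite strand overlapped 48.4% of its PRO-seq window. This bound says nothing of the TUBA1C mRNA, whose exons were not counted.

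The beta genes ran from −0.42 in TUBB2A to 1.82 in TUBB6. TUBB had a log2 relative half-life of 1.50 (SE 0.0493, edgeR adjusted p = 1.90e-22), 2.83-fold above the median mRNA and above 82.3% of tested mRNAs. TUBB4B was at 0.83 (SE 0.0630, edgeR adjusted p = 2.38e-13), 1.78-fold above, and did not pass the test for more than 2-fold (edgeR adjusted p = 1). With 500 bp removed for PRO-seq in place of 1000 bp, TUBB4B was at 1.22. The first 12 coding bases of TUBB and TUBB4B were the same, and the exons of both were mostly made of windows found once. What sets their values apart was not tested. TUBB2A was at −0.42 (SE 0.143, edgeR adjusted p = 0.00717), 1.35-fold below the median mRNA and above 39.5% of tested mRNAs. Without PRO-seq replicate 2, TUBB2A was at −0.41 and no longer called (edgeR adjusted p = 0.0612), with all of the spread then taken from RNA-seq, since 1 PRO-seq library was left. Its sign turned with exon length at windows found once (0.88) or with both lengths cut (0.20).

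The counted transcript of TUBB6 stood at 1.82 (SE 0.107, edgeR adjusted p = 5.30e-16), 3.55-fold above the median mRNA. Its RNA-seq value came from exons of 359 bp, of which 24.2% lie in canonical exons, and its PRO-seq value from a window of 32354 bp, of which 46.8% lies in the canonical gene. AFG3L2, a mitochondrial protease gene on the opposite strand, overlapped 32.3% of these exons and 44.4% of the window. Its part in the result was not tested.

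TUBG1, the gamma-tubulin gene, stood at 1.29 from pooled TPM and at 1.28 in the fit (SE 0.144, edgeR adjusted p = 1.69e-09), 2.44-fold above the median mRNA and above 78.6% of tested mRNAs. Its value lay between those of TUBB and TUBB4B. Its first codons encode other residues than those of the alpha and beta genes, and whether this bears on the value was not tested. TTC5, on its counted transcript, had the lowest value of the genes tested, −1.75 (SE 0.217, edgeR adjusted p = 1.26e-08), 3.37-fold below the median mRNA and above 13.6% of tested mRNAs. Its replicate SD was 0.612, the largest of the genes tested, with 46 RNA-seq counts in all. Another TU on the same strand overlapped 13.8% of its counted exons.

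In the order of log2 relative half-life (TUBA4A, TUBB6, TUBA1B, TUBB, TUBG1, TUBB4B, TUBB2A, TUBA1A, TTC5), 3 pairs of neighbours did not differ beyond their combined replicate SD. TUBB6 and TUBA1B differed by 0.246 with a combined SD of 0.257, TUBA1B and TUBB by 0.0816 with 0.133, and TUBB2A and TUBA1A by 0.0968 with 0.165. The widest gap among neighbours was between TUBA4A and TUBB6, at 1.52, and the next, 1.26, was between TUBB4B and TUBB2A. With exon length at windows found once, TUBB4B and TUBB2A stood at 0.91 and 0.88, and with the PRO-seq length cut as well, at 0.90 and 0.20. TUBA1B and TUBB, whose products pair in the dimer, were at 2.54 and 1.66 with exon length alone cut. With both lengths cut, they were at 2.19 and 1.59.

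**Figure D2:**
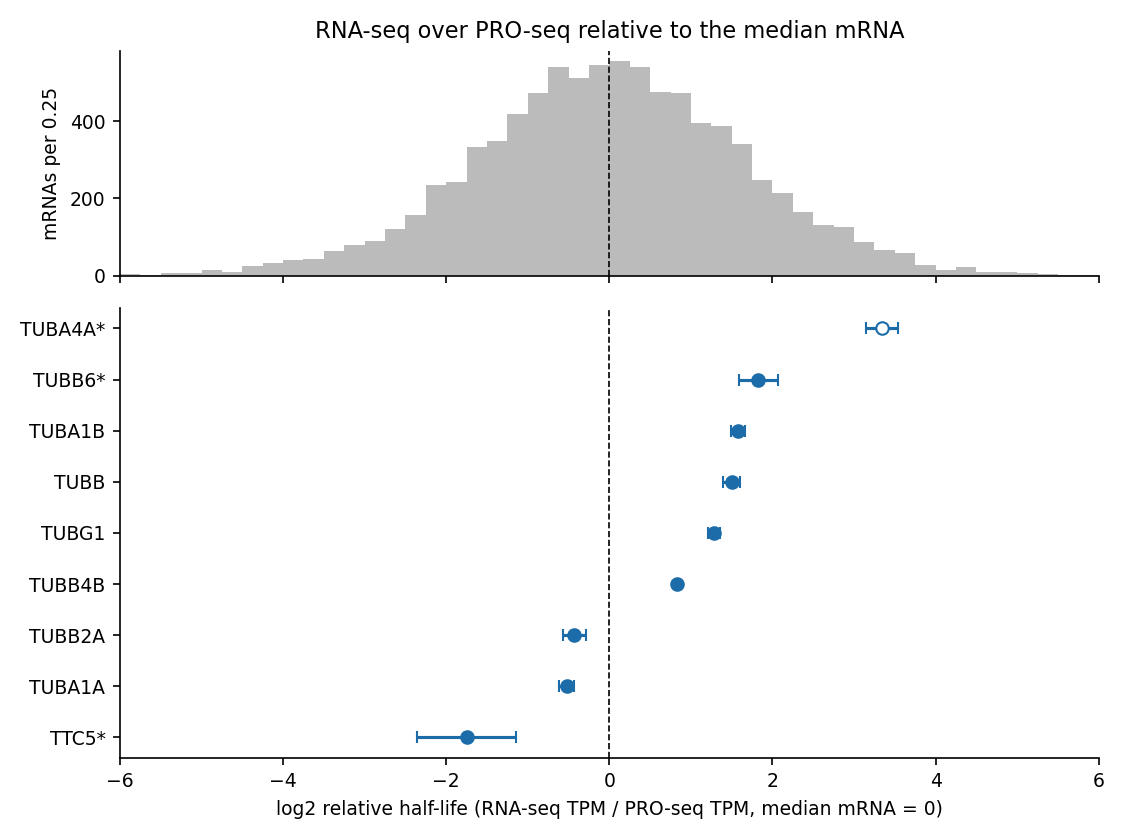
Upper panel, log2 relative half-life of the tested mRNAs, as mRNAs per bin of 0.25, with 17 mRNAs beyond the axis. Lower panel, the 9 genes with a value from pooled TPM, with replicate SD as bars, an open point for TUBA4A, which was not tested, and an asterisk on genes not counted on their canonical transcript. TUBA1B and TUBB sit together near 1.58 and 1.499, whereas TUBB2A, TUBA1A and TTC5 sit below 0. TUBB2A and TUBA1A turn above 0 with exon length at windows found once (0.88 and 0.02). With the PRO-seq length cut as well, they are at 0.20 and −0.18.

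Alpha- and beta-tubulin are needed in equal numbers, and the summed TPM of the 4 alpha genes was compared with that of the 4 beta genes. The ratio was 0.855, 0.927, 0.885 and 0.919 in RNA-seq (0.896 ± 0.0331, SD, n = 4). In PRO-seq it was 0.693 and 0.719 (0.706 ± 0.0185, SD, n = 2). All RNA-seq libraries were above both PRO-seq libraries. An exact two-sided permutation test gave p = 0.133, the smallest that 15 arrangements allow, so the design cannot reach 0.05. The ratio was lower in the close pair of RNA-seq replicates 1 and 3 than in replicates 2 and 4, so n = 4 may overstate the replication. The ratio in RNA-seq moved above 1, to 1.53, with exon length at windows found once (51.6% of windows in TUBA1B and 89.5% in TUBB). The PRO-seq ratio was not cut in this way, although its windows found once were 78.8% in TUBA1B and 95.4% in TUBB. The 1.53 is therefore not to be set against the PRO-seq ratio given here. No mRNA of TUBA1C was counted, so the alpha sum lacks it. Together the 8 genes made 4001 TPM of steady-state RNA and 2463 TPM of nascent RNA.

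Within each subunit 1 or 2 genes made nearly all of the RNA counted on the listed genes. Most or all of the coding sequence of TUBA1C, TUBA4A and TUBB6 was outside the counted exons, so shares of their mRNAs are unknown. With the listed relatives included, TUBA1B was 93.5% of alpha TPM in RNA-seq and 87.4% in PRO-seq. TUBA1B was 96.1 ± 0.215% of alpha TPM in RNA-seq (SD, n = 4) and 92.7 ± 0.137% in PRO-seq (SD, n = 2). TUBA1A was 1.59 ± 0.0550% in RNA-seq and 6.58 ± 0.0619% in PRO-seq, with no overlap. TUBB was 60.0 ± 0.822% of beta TPM in RNA-seq and 48.2 ± 0.885% in PRO-seq, whereas TUBB4B was 32.8 ± 1.07% and 41.9 ± 0.688%. TUBB2A was 2.15 ± 0.148% in RNA-seq and 6.55 ± 0.0321% in PRO-seq, and the counted transcript of TUBB6 5.05 ± 0.787% and 3.29 ± 0.165%. TUBA1B and TUBB thus held a larger share of steady-state than of nascent RNA, and TUBA1A, TUBB2A and, unless length is left out, TUBB4B a smaller share. For each share the libraries of the assays did not overlap, and each exact two-sided permutation p was 0.133, the smallest possible. Without division by length, the direction turned for TUBB4B (24.7% in RNA-seq and 15.6% in PRO-seq), and for the counted transcripts of TUBB6 and TUBA4A. With exon length at windows found once, the RNA-seq share was 4.74% for TUBB2A and 1.19% for TUBA4A, while PRO-seq shares were not cut in this way. The shares of TUBA1C and TUBA4A refer to their counted transcripts, the latter 2.27 ± 0.222% in RNA-seq and 0.644 ± 0.0965% in PRO-seq.

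**Figure D3:**
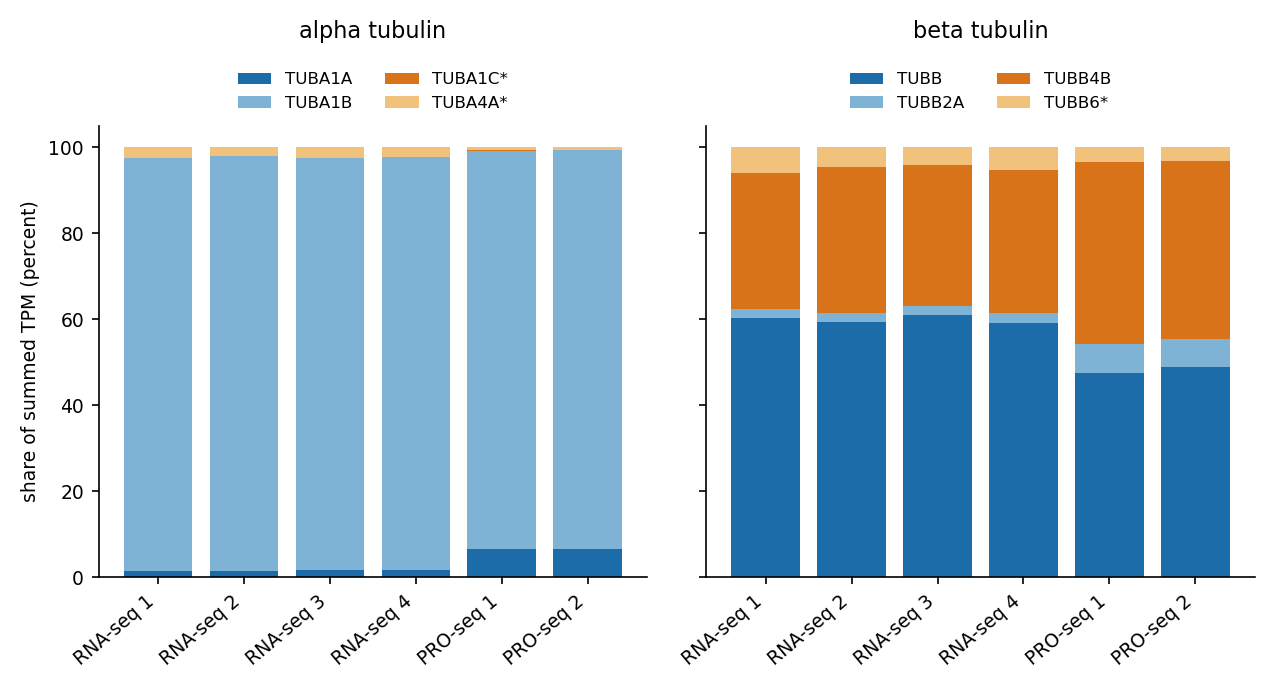
Share of summed TPM (percent) of each alpha gene (left) and beta gene (right) in the 4 RNA-seq and 2 PRO-seq libraries, with an asterisk on genes not counted on their canonical transcript. TUBA1B fills more than 92% of every alpha bar, and TUBB4B is larger in the PRO-seq bars (41.9%) than in the RNA-seq bars (32.8%), an order that turns without division by length.

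A list of 13 other tubulin genes was also counted, of which 4 could be tested. TUBD1, which encodes delta-tubulin of the centriole, was below the median mRNA at −0.58 (SE 0.0719, edgeR adjusted p = 1.20e-08), and the alpha-like gene TUBAL3 was below it at −0.54 (SE 0.126, edgeR adjusted p = 2.22e-04). TUBB1, the beta isotype of platelets, was at −0.40 (edgeR adjusted p = 0.106) and TUBE1, which encodes epsilon-tubulin, at −0.08 (edgeR adjusted p = 0.471). None of the 4 was called above. Among untested genes, TUBA3C had 627 RNA-seq and 26 PRO-seq counts, TUBB2B 39 and 10, TUBG2 25 and 2, TUBB4A 5 and 26, TUBB8 2 and 42, and TUBB3 3 and 13. Outside this list and that of pseudogenes, TUBA3FP had 142 RNA-seq and 177 PRO-seq counts, TUBA4B 0 and 19, and TUBB8B 1 and 24.

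Of 31 counted tubulin genes that the annotation types as pseudogenes, 16 had at least 1 RNA-seq count, and their 1341 counts were 1.31% of the RNA-seq counts on the 10 genes. TUBBP1 held 1014 of them, with 298, 282, 234 and 200 counts in replicates 1 to 4, and no PRO-seq count in either library, which allows up to 3. TUBAP2 likewise had 199 RNA-seq counts and no PRO-seq count, whereas TUBBP9 had 81 RNA-seq and 205 PRO-seq counts. For TUBBP1 and TUBAP2, transcription was thus not detectable at this depth in short PRO-seq windows. They held 572 and 539 windows of 75 bases, against 2540 in TUBA1B, so low transcription could be missed. Reads of near-identical copies may be placed on either, so the counts on pseudogenes are uncertain.

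Genes whose products fold, sense, modify or organise tubulin were counted in lists, beside 40% of all TUs tested called above and 50.4% called below. In the CCT chaperonin, which folds tubulin and actin, and its phosducin-like cofactors, 10 of 11 genes were above the median mRNA and 1 below, with a median log2 relative half-life of 3.01. CCT3 (4.90) and CCT7 (4.39) were highest, and PDCL (1.68) and PDCL2 (−3.09) lowest. CCT3 and PDCL had 44.4% and 28.0% of their coding sequence in the counted exons. In prefoldin, which hands unfolded tubulin to CCT, 6 of 6 subunits were above, with a median of 2.41, from VBP1 (4.88) and PFDN5 (4.51) down to PFDN1 (1.50) and PFDN6 (1.22). Of the folding cofactors, which assemble the dimer after CCT, 3 of 4 tested genes were above (TBCA at 4.40, TBCB at 3.38 and TBCD at 0.26) and TBCC was below (−0.49).

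In the lists of decay cofactors and of the ring complex, as many genes were called above as below, close to the shares over all TUs (40% and 50.4%). Of the decay cofactors, SCAPER and the CCR4-NOT subunits, 5 of 10 tested genes were above and 5 below, with a median of −0.04. CNOT10 (1.72) and CNOT11 (1.36) were highest, and CNOT7 (−1.22) and CNOT3 (−2.52) lowest. SCAPER, at 6.68 TPM in PRO-seq, was not tested. In the gamma-tubulin ring complex, the partners of TUBG1, 5 of 11 genes were above, 5 below and 1 uncalled, with a median of −0.03. MZT2B (2.88) and NME7 (2.16) were highest, and ACTB (−1.24) and TUBGCP4 (−1.84) lowest, so TUBG1 at 1.28 was inside the range of its partners.

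Of the enzymes that modify tubulin, 3 of 9 tested genes were above, 5 below and 1 uncalled, with a median of −0.36, beside the same 40% and 50.4% over all TUs. SVBP (1.79) and HDAC6 (1.18) were highest, and TTLL3 (−0.76) and the tubulin acetyltransferase gene ATAT1 (−3.77) lowest. TTLL3 had 41.9% of its coding sequence in the counted exons. Of the factors that set microtubule dynamics, 11 of 19 were above, 5 below and 3 uncalled, with a median of 0.62. MAPRE1 (2.47) and STMN1 (2.31), which encodes a protein that sequesters tubulin dimers, were highest, and MAPRE3 (−1.13) and MAP1S (−1.97) lowest. The SE of the list genes named ran from 0.0464 (STMN1) to 0.186 (ATAT1), and the largest edgeR adjusted p among them was 0.00930 (TBCC). KIF2A was not analysed here.

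Among all other mRNAs, those with TPM values most like the main tubulin genes over the 6 libraries were ribosomal protein genes. By Euclidean distance on log2(TPM + 1), TUBA1B was closest to RPS20 (0.393) and RPL9 (0.534), and TUBB to RPL18 (0.497) and RPLP1 (0.595). TTC5 was closest to FICD (0.508) and AMY2B (0.598). The distance reflects the level in each assay and is given as a description over 6 libraries.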

How the data were processed

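For each of 4 RNA-seq and 2 PRO-seq libraries the authors deposited raw HTSeq counts per longest transcript, made from reads trimmed with Cutadapt and aligned with HISAT2 to GRCh38. RNA-seq counts cover exons and PRO-seq counts the transcript, without 500 bp per the labels, taken here as 500 bp at each end (1000 bp in all) after the study's methods. The sources used here give neither versions nor the strand setting. Rows naming no transcript, 66.5% to 68.6% of RNA-seq and 86.5% or 88.6% of PRO-seq records, were left out of totals and tests.

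Transcripts were joined by identifier to GENCODE on GRCh37, the build of all coordinates, lengths and sequences here. Of 42371, 37339 matched and 84 with a span of 1000 bp or less were dropped. TPM used exon length for RNA-seq and span less 1000 bp for PRO-seq. Counts were tested with edgeR 4.0.16 (R 4.3.3; quasi-likelihood, TMM, length offsets, two-sided, Benjamini-Hochberg at 0.05), with DESeq2 1.42.0 as an alternative. In simulated counts of both assays for 10053 TUs, 200 were given a log2 change of 1, of which edgeR found 95%, with 6 false calls. All other simulated TUs had the same ratio, unlike the real ones, so these figures do not measure errors among the calls made here. Ratios and shares were compared by exact permutation over libraries. Sharing of 75-base windows was looked up in GRCh37.

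The genes, lists and alternatives were chosen with earlier results of these data known. Named list genes are the 2 highest and 2 lowest called. Named tubulin relatives had at least 10 summed counts in either assay, named pseudogenes the most RNA-seq counts (3), and similar mRNAs the smallest distance (2 each). The difference between replicates 1 and 2 in RNA-seq did not follow that in PRO-seq (r = −0.0339 over 10053 TUs).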

Additional observations from a re-analysis of the deposited data

Results flagged for a closer look

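The RNA-seq level of TUBB2A was set apart by 1 library. Replicate 2 had 39.5 TPM, and replicates 1, 3 and 4 had 47.7, 47.9 and 47.1 TPM. The gap between replicate 2 and the nearest library was 0.906 of the range of the 4, above Dixon's 95% critical value. Of 19 measures looked at in this way, 1 was above the critical value, and chance gives about 1 in 20. Without RNA-seq replicate 2, TUBB2A was still called below the median mRNA.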

How the results depend on the processing

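The calls of TUBA1A and TUBB2A, both below the median mRNA, depended on the processing. Against the median of all TUs, whose values all rise by 0.24, TUBA1A was −0.28 (edgeR adjusted p = 0.0732) and TUBB2A −0.18 (0.222). At 1 summed count or more they were 0.14 (0.446) and 0.24 (0.121), where the median TU rose by 0.66. For more than 2-fold, TUBA1A (−0.52), TUBB2A (−0.42) and TUBB4B (0.83) each had an adjusted p of 1. With 500 bp removed, TUBB2A was −0.24 (0.104), and TUBB4B rose to 1.22, with 37.5% of beta TPM in PRO-seq. Over the fits with a test, adjusted p ran from 0.00179 to 1 for TUBA1A and from 0.00456 to 1 for TUBB2A. Each of these first 3 settings left 1 gene below the median mRNA in place of 3, and 2-fold left 8 list genes below in place of 24. With exon length at windows found once, values were 0.024 (TUBA1A), 2.54 (TUBA1B), 1.66 (TUBB), 0.88 (TUBB2A), 0.91 (TUBB4B) and 1.61 (TUBG1). With both lengths cut, added after seeing the data, they were −0.18, 2.19 (TUBA1B), 0.20 (TUBB2A), 0.90 (TUBB4B) and 1.46 (TUBG1). These lengths were changed for the genes alone and not for the median mRNA. TUBA4A was 3.996 at 1 summed count or more. Alpha over beta TPM was 0.693 (RNA-seq) and 0.528 (PRO-seq) without length, 1.53 in RNA-seq with windows found once, and 0.734 and 0.725 in PRO-seq with the listed relatives included and with canonical transcripts alone, the latter added later.

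With each library left out in turn, 5 genes were above and 2 to 3 below. Where a PRO-seq library was left out, all of the spread came from RNA-seq, and the remaining one was assumed to vary alike. Values ran from −0.56 to −0.49 (TUBA1A), 1.54 to 1.63 (TUBA1B), 1.46 to 1.54 (TUBB), −0.46 to −0.35 (TUBB2A), 0.82 to 0.84 (TUBB4B), 1.68 to 1.90 (TUBB6), 1.24 to 1.31 (TUBG1) and −2.04 to −1.50 (TTC5). With replicate number as a block, 5 genes were above and 3 below, TUBA1A was −0.56 and TUBB2A −0.48. The block changed none of the calls on the 8 genes. The difference between replicates 1 and 2 in RNA-seq did not follow that in PRO-seq (r = −0.0339). As a single difference per assay, it cannot decide whether the libraries were paired. DESeq2, library totals in place of TMM and summed close pairs of RNA-seq libraries, added after seeing the data, also left those 8 calls as they were. Counts were few for TTC5 (46 in RNA-seq) and TUBG1 (84 in PRO-seq).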
